A study of Mus musculus with 8 samples.

Results

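Nuclear factor I (NFI) proteins are encoded by 4 mouse genes, Nfia, Nfib, Nfic and Nfix, and a further gene, G430095P16Rik, is annotated within Nfix in antisense orientation. These 5 of the 52636 genes in the count table were chosen by symbol, because G430095P16Rik had counts in the libraries of one genotype and hardly any in the other. For that reason the comparison of genotypes for these genes is given as a description, with no test. Bulk RNA sequencing had been performed on mesenchymal stem/progenitor cells (MSPCs) of C57BL/6 bone marrow, labelled as 6 weeks old, with 4 control (CTR, Flk2-cre+ Cxcr4fl/+) and 4 knockout (cKO, Flk2-cre+ Cxcr4fl/fl) mice and 1 mouse per library. All 8 mice carried the Flk2-cre transgene and at least 1 floxed Cxcr4 allele. Flk2-cre acts in multipotent hematopoietic progenitors and their progeny and not in MSPCs, so that the sorted cells were not the cells in which Cxcr4, a chemokine receptor, was deleted. The cells were sorted as CD45- Ter119- CD31- CD144- PDGFRα+ and positive for GFP expressed from the Kitl locus. Such a sort requires a Kitl-GFP allele in the mice of both genotypes, which the genotype names above leave out. In the paper, cKO mice heterozygous for that allele no longer had raised numbers of hematopoietic stem cells.

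NFI proteins are transcription factors that bind DNA as dimers, through a conserved N-terminal domain that the family shares, and they can activate or repress. Their binding site is a palindrome of the half-sites TTGGC and GCCAA around a short spacer, and a single half-site is bound more weakly. Nfia and Nfib are known for glial differentiation and brain and lung development, Nfic for tooth root and bone formation, and Nfix for muscle and neural development and for the maintenance of hematopoietic stem and progenitor cells.

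Total counts ranged from 31047344 to 38216877 per library, and 18366 to 20684 genes had a count. All 8 markers fixed for MSPCs, among them Lepr, Cxcl12 and Kitl, had counts in every library, and their summed level in CPM (counts scaled to a library total of 1000000) was 52743 to 65120 in CTR libraries against 54121 to 65826 in cKO libraries. The 5 endothelial markers summed to 1.67 to 5.58 CPM and the 10 hematopoietic markers to 22.3 to 92.0 CPM in CTR libraries against 61.3 to 112 in cKO libraries, with Tek and Cd3e at 0 throughout. The 6 neural and Schwann cell markers, of interest because NFI proteins are studied most in the nervous system, reached at most 1.98 CPM in sum, with Snap25 and Rbfox3 at 0. The libraries of the genotypes overlapped in all 7 marker lists. In bulk RNA, fewer cells of a type and less RNA per cell cannot be told apart. Each title also carries a number of unstated meaning, which was between 67 and 86 for the libraries of replicates 1 and 3 of both genotypes and between 26 and 32 for those of replicates 2 and 4.

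G430095P16Rik spans positions 84723007 to 84726844 of chromosome 8 on the plus strand (GENCODE M21, GRCm38), within Nfix, which spans 84699876 to 84800344 on the minus strand. It has 2 exons of 265 and 456 bases, separated by an intron of 3117 bases, and its end lies 73500 bases inside Nfix, counted from the Nfix start. GENCODE types it as protein coding, with nearly all of the coding sequence in the second exon, whereas RefSeq lists it as a long non-coding RNA. What its product does is not known from the sources used here. Of its 721 exon bases, 137 (19.0%) also belong to an Nfix exon, and these make up 1.86% of the 7351 Nfix exon bases. The other 584 lie in Nfix introns. Whether the counting used strand is not stated, so that reads from Nfix and from G430095P16Rik over the shared bases, or from unspliced Nfix RNA over the rest, cannot be told apart in the counts.

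**Figure D1:**
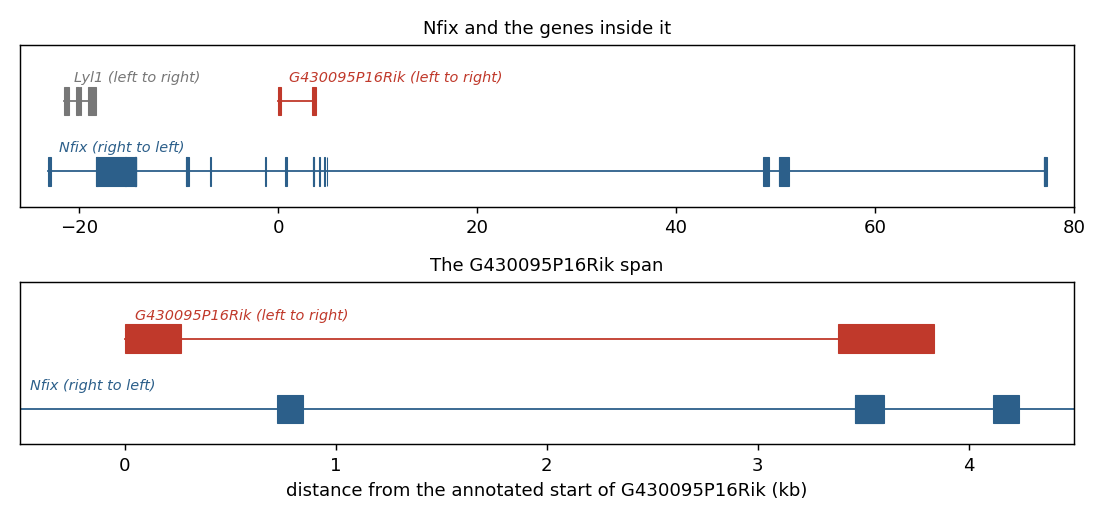
Exons (boxes) of Nfix, G430095P16Rik and Lyl1 by distance in kb from the annotated start of G430095P16Rik, for the whole of Nfix (upper panel) and for the G430095P16Rik span (lower panel), with the direction of transcription in brackets. The second G430095P16Rik exon (456 bases) covers a whole Nfix exon of 137 bases, and the first exon (265 bases) touches none.

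The shared stretch is shown because it is where the exons of the pair coincide. It is given on the plus strand, chr8:84726439-84726635 of GRCm38, from the GENCODE transcript, with the 137 shared bases in capitals between 30 bases on each side. On the Nfix strand the stretch is preceded by ag and followed by gt, the usual ends of introns, and it is found whole in 5 of the 8 annotated Nfix transcripts.
G430095P16Rik second exon: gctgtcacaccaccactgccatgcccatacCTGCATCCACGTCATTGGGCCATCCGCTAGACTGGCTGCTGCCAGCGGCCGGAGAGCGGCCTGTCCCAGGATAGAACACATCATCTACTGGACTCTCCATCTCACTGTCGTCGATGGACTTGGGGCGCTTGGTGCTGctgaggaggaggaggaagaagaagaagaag

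The 200 bases before the annotated G430095P16Rik start, chr8:84722807-84723006 of GRCm38.p6 on the plus strand (RefSeq), are shown because this gene's counts separated the genotypes. Capitals mark the half-site TTGGC, searched with its reverse complement GCCAA on both strands. It was found once, on the plus strand, with its first base 137 bases before the start.
G430095P16Rik upstream: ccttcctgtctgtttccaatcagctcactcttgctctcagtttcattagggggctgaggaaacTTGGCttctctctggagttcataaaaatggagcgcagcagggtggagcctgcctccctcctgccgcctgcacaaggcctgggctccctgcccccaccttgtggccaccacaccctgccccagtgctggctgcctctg

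A half-site was present in 15344 of 32851 RefSeq promoter windows (46.7%), each of 250 bases before and 50 after a start. For the 4 genes of the 5 with such windows, it was present in the window of G430095P16Rik and in 3 of the 4 windows of Nfix, and in neither the window of Nfia nor that of Nfic. The full palindrome, TTGGC and GCCAA with 5 bases between them, was in 12 of all windows (0.0365%) and in 0 of the 7 windows of these genes. These are matches of letters in a window only. The windows follow RefSeq starts, which can differ from the starts of the GENCODE spans given here. The Nfia window (97581693 to 97581992) lies outside the GENCODE span of Nfia (97772734 to 98118874). All 4 Nfix windows lie inside the GENCODE span of Nfix, away from its annotated start.

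G430095P16Rik was counted 2, 0, 0 and 0 times in CTR1 to CTR4 and 232, 239, 223 and 306 times in cKO1 to cKO4. The genotypes lay far apart, and all 4 cKO libraries were close to each other. After TMM scaling of library sizes, its level was 7.06, 6.82, 6.85 and 7.96 CPM in the cKO libraries (7.18 ± 0.535, SD, n = 4) and at most 0.0642 CPM in CTR. A count of 0 in CTR2 to CTR4 allows 0.0796 to 0.0932 CPM by a floor of 3 counts.

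The summed counts, 1000 in cKO and 2 in CTR, gave a ratio of 480 relative to the library totals, with an exact (Clopper-Pearson) 95% interval of 133 to 3970 that covers counting error only. The fitted log2 fold change of 8.57 (SE 0.74) depends on how the zeros are handled and was 10.95 without CTR1, the only CTR library with a count. That value lies outside the approximate 95% interval of 7.13 to 10.01, so that the SE understates the uncertainty of this fold change. Within title numbers 26 to 32 the difference of mean log2 CPM was 6.98, and within 67 to 86 it was 6.37, on a scale with a prior count of 2 that lowers differences from 0. Of 15561 genes tested in edgeR between the genotypes, 1 (0.00643%) was called, and it was G430095P16Rik, by the values for which it was chosen. With limma-voom, with the replicate number as a block, or without cKO2, cKO3 or cKO4, 0 genes were called. Its fitted log2 fold change in these fits was 8.32 to 8.65. All cKO libraries lay above all CTR libraries for 223 of the genes tested (1.43%). G430095P16Rik passed the filter on low counts only through the cKO libraries, and a filter that needs a count in every library removes it.

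The G430095P16Rik count equalled 6.20%, 5.76%, 6.51% and 5.98% of the Nfix count in cKO1 to cKO4, a mean of 6.11% ± 0.321 (SD, n = 4). In CTR1 it was 0.050% of the Nfix count, and in the other CTR libraries a count of 0 allows up to 0.0545% to 0.0708%. The share thus varied little among the cKO libraries, and with each left out in turn its mean was 5.98% to 6.23%. Per length of exon, the G430095P16Rik count was 63.2%, 58.7%, 66.4% and 61.0% of that of Nfix in cKO1 to cKO4.

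**Figure D2:**
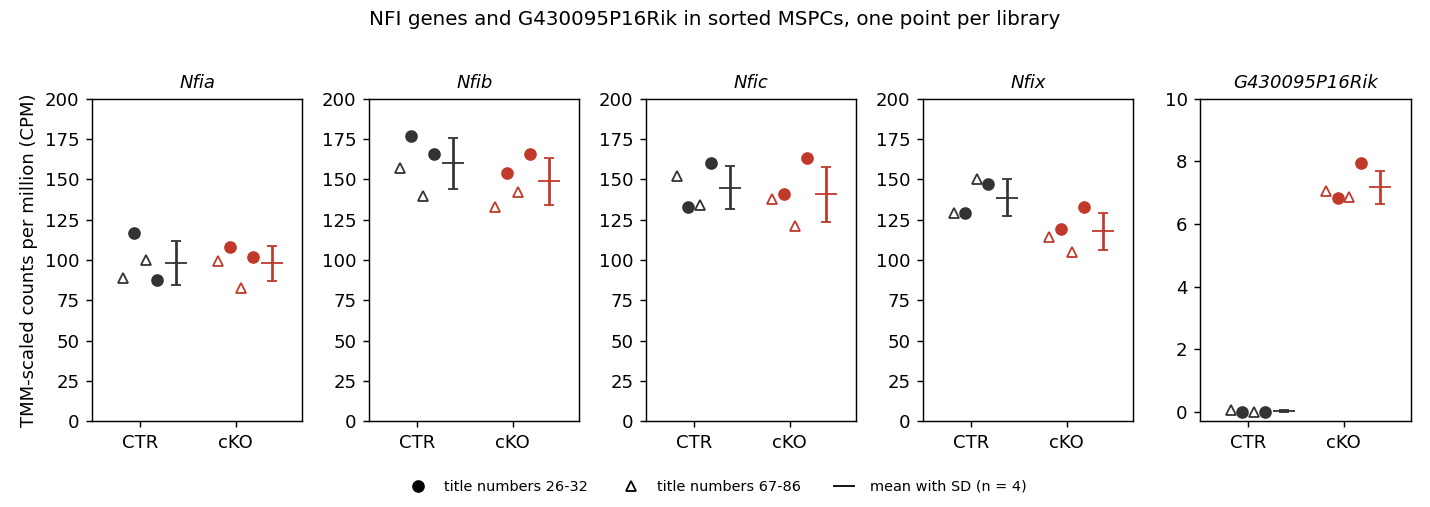
TMM-scaled CPM of the 4 NFI genes (axis 0 to 200) and of G430095P16Rik (axis to 10) in each of 4 CTR (black) and 4 cKO (red) libraries, with mean and SD beside the points and the title number range as the symbol. The 4 cKO points of G430095P16Rik lie between 6.82 and 7.96 CPM and the CTR points at or near 0, whereas the points of the genotypes overlap for all 4 NFI genes.

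Few genes were counted in some libraries and absent from others in this way. Of 11401 genes with at least 200 counts in some library, 87 (0.763%) had 3 or fewer in another. Of these 87, 47 (54.0%) share exon bases with another gene, as do 4595 (40.6%) of the 11314 others. Exon bases shared with a gene on the opposite strand were found for 29 of the 87 (33.3%) and for 3935 of the others (34.8%). In 21 of the 87 every library was at or above 200 counts or at or below 3. Only 3 of the 21 were at or above 200 counts in exactly 4 libraries, as a split by genotype or by title number range needs. G430095P16Rik, chosen for its split, had the genotypes apart, and none had the title number ranges apart. Others were on in a mixed set of libraries, such as Gm20716, a predicted gene with 399 to 1070 counts in CTR2, CTR3, cKO1 and cKO4 and 0 in the rest. These counts describe the table, and the part of read assignment in the G430095P16Rik values was not tested.

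Nfix was counted 4002, 4238, 4847 and 5508 times in CTR1 to CTR4 and 3743, 4152, 3425 and 5113 times in cKO1 to cKO4. Scaled, it was at 129, 129, 150 and 147 CPM in CTR (139 ± 11.4, SD, n = 4) and 114, 119, 105 and 133 CPM in cKO (118 ± 11.6, SD, n = 4). Its cKO values were on the whole lower, with cKO4 inside the CTR range, so that the genotypes overlapped. The fitted log2 fold change was -0.24 (SE 0.11), with an approximate 95% interval of -0.45 to -0.04. This interval, like those of the other NFI genes below, is a description and not a test. As a difference of mean log2 CPM it was -0.13 within title numbers 26 to 32 and -0.34 within 67 to 86. The difference of the means was -21.1 CPM for Nfix and 7.16 CPM for G430095P16Rik. Nfix and G430095P16Rik together came to 139 ± 11.4 CPM (CTR) and 125 ± 12.1 CPM (cKO; SD, n = 4 each), with ranges of 129 to 150 and 112 to 141 CPM.

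Nfia (chromosome 4, 97772734 to 98118874, plus strand) was at 89.1, 117, 99.7 and 87.3 CPM in CTR1 to CTR4 and at 99.3, 108, 82.6 and 102 CPM in cKO1 to cKO4. The genotype means were 98.2 ± 13.5 and 98.0 ± 11 CPM (SD, n = 4 each), and the fitted log2 fold change was -0.01 (SE 0.13), with an approximate 95% interval of -0.26 to 0.24. The ranges of Nfia in the genotypes overlapped widely, with the lowest value in cKO3 and the highest in CTR2.

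Nfib (chromosome 4, 82290173 to 82705750, minus strand) was the NFI gene with the most counts in sum, at 157, 177, 140 and 166 CPM in CTR1 to CTR4 and 133, 154, 142 and 166 CPM in cKO1 to cKO4. Its means were 160 ± 15.6 and 149 ± 14.4 CPM (SD, n = 4 each), with a fitted log2 fold change of -0.11 (SE 0.11, interval -0.33 to 0.11). The values of the genotypes overlapped over most of their ranges. NFI genes are known to give several transcripts by alternative splicing, which counts per gene do not separate.

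Nfic (chromosome 10, 81396186 to 81455635, minus strand) was at 152, 133, 134 and 160 CPM in CTR1 to CTR4 and 138, 141, 121 and 163 CPM in cKO1 to cKO4. Its means were 145 ± 13.3 and 141 ± 17.5 CPM (SD, n = 4 each), with a fitted log2 fold change of -0.05 (SE 0.12, interval -0.28 to 0.18). For the 4 NFI genes, 0 had genotypes that did not overlap, where 2.63% of all genes tested had, and the median absolute log2 fold change over all genes tested was 0.16.

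Over all 8 libraries the coefficient of variation of the NFI genes was 9.78% (Nfib) to 12.1% (Nfix), beside a median of 11.7% over the 1799 genes with a mean CPM above that of Nfia. The NFI genes were thus about as even across mice as the middle of that set, which also holds far more abundant genes. By mean CPM they ranked 1002 (Nfib), 1107 (Nfic), 1257 (Nfix) and 1800 (Nfia) among the 15561 genes tested.

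To compare the genes with each other, counts were divided by the length of the merged exons and scaled so that each library had the same sum (TPM). Nfic was the highest at 72.7 ± 7.78 TPM (SD, n = 8), followed by Nfix at 58.8 ± 7.34, Nfib at 34.8 ± 3.60 and Nfia at 30.4 ± 3.70 TPM. Nfic and Nfix had 1.24-fold different levels, with Nfic higher in 7 of 8 libraries and overlapping ranges. Nfib and Nfia differed 1.15-fold, also with the first higher in 7 of 8 libraries and overlapping ranges. Nfix exceeded Nfib 1.69-fold in level per length, in 8 of 8 libraries and with its lowest value (47.2 TPM) above the highest of Nfib (40.0 TPM). With merged exons as the length, the upper pair thus stood apart from the lower pair. Within libraries the mean log2 ratio was 0.31 (SD 0.16) for Nfic over Nfix and 0.20 (SD 0.18) for Nfib over Nfia. With the longest transcript as the length, Nfix (62.6 TPM) and Nfic (61.3 TPM) changed places. Nfib (45.3 TPM) then came closer to them, and whether the library ranges of the pairs stay apart with that length was not examined.

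In TPM, G430095P16Rik was at 33.2, 32.8, 31.3 and 36.3 in cKO1 to cKO4 (33.4 ± 2.10, SD, n = 4), beside 33.4 ± 3.19 TPM for Nfib and 30.3 ± 3.95 TPM for Nfia in the same libraries. Its level per length in cKO MSPCs therefore lay within the range of Nfib, although its counts were far fewer. In cKO4 it was above the highest value of Nfia in cKO (34.5 TPM). The likeness depends on the length used. With the longest transcript, means over all 8 libraries were 13.3 TPM for G430095P16Rik, 27.5 for Nfia and 45.3 for Nfib. With merged exons they were 16.7, 30.4 and 34.8 TPM. Both means of G430095P16Rik include the 4 CTR libraries at or near 0, so that they serve to compare the lengths and not the genes. The sum of the 4 NFI genes was 205 ± 9.62 TPM for CTR and 189 ± 19.6 TPM for cKO (SD, n = 4 each). Nfix made up 31.2% ± 2.46 of that sum in CTR and 28.5% ± 0.395 in cKO, and here the genotypes did not overlap, with 29.2% to 34.6% in CTR and 27.9% to 28.8% in cKO libraries. The gap was narrow, from 28.8% in cKO3 to 29.2% in CTR2. The shares of Nfia, Nfib and Nfic overlapped between the genotypes, and that of Nfib was 17.7% ± 1.56 in CTR and 17.7% ± 1.18 in cKO. How often such a share separates the genotypes for other sets of genes was not examined. The Nfix share is therefore a description only.

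**Figure D3:**
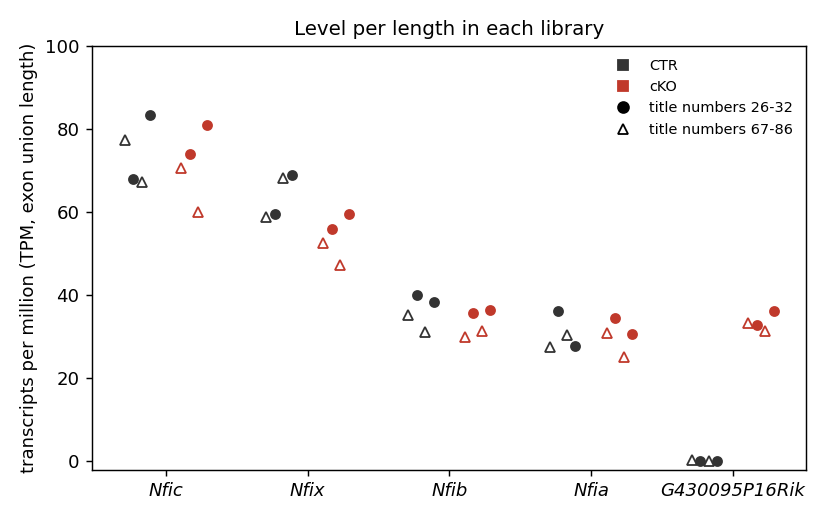
Level per length in TPM (merged exons) for each gene and library, CTR in black and cKO in red, with the title number range as the symbol. Nfic and Nfix lie between 47.2 and 83.3 TPM, above Nfib and Nfia (25.0 to 40.0 TPM), and G430095P16Rik joins the latter only in the 4 cKO libraries.

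The title number range was not used in choosing the genes, and edgeR tested it with genotype in the model. Across all 15561 genes, 2 (0.0129%) had an adjusted p under 0.05 in edgeR, beside 356 in DESeq2's Wald test and 2 in limma-voom. For 1050 (6.75%) the libraries of the ranges did not overlap. Of the 4 NFI genes, 0 were called by edgeR, DESeq2 or limma-voom, 1 had an unadjusted p under 0.05 in edgeR, as did 10.3% of all genes tested, and 0 had ranges that did not overlap. That gene was Nfib, at 166 ± 9.23 CPM in 26 to 32 and 143 ± 10.1 CPM in 67 to 86 (SD, n = 4 each). Its log2 fold change, 67 to 86 over 26 to 32, was -0.20 (SE 0.09, edgeR unadjusted p = 0.0439, adjusted p = 0.472), and it was -0.21 among CTR and -0.22 among cKO libraries as a difference of mean log2 CPM.

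The log2 fold changes for the ranges were -0.15 (SE 0.12) for Nfia, -0.13 (SE 0.11) for Nfic and -0.08 (SE 0.10) for Nfix, with edgeR adjusted p-values of 0.709, 0.740 and 0.830. All 4 NFI genes had the lower mean in 67 to 86, and none of these differences passed the test. For G430095P16Rik, at or near 0 in CTR, the ranges could be compared only among the cKO libraries, where the difference of mean log2 CPM was -0.08.

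Other annotated genes within the NFI genes were few and low. Gm11266, an antisense gene inside Nfib, ranged from 27 to 58 counts among CTR and from 6 to 99 among cKO libraries. Gm16104, antisense inside Nfic, reached 14 counts among CTR and 0 among cKO libraries, and E130114P18Rik, which overlaps the start of Nfia on the other strand, reached 0 and 15. Lyl1, a hematopoietic transcription factor gene inside Nfix, was counted 0 to 9 times in CTR libraries and never in cKO libraries. Gm11267, Gm11268 and Gm11269 in Nfib had 0 counts in every library, and the small RNA genes n-R5s188 in Nfib and Mir1191b in Nfic had at most 5. No gene within an NFI gene other than G430095P16Rik had genotypes that did not overlap.

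The genes around Nfix were examined to see whether they differed between the genotypes too. Of 60 genes that start within 500 kb of Nfix, 36 were tested and 0 were called by edgeR, DESeq2 or limma-voom. Of all 15561 genes, edgeR called 1 (0.00643%) and limma-voom 0, and DESeq2 called 31 (Wald test) or 40 (likelihood ratio test). With so few calls among all genes, 0 of 36 says little about the locus. In edgeR 3 (8.33%) had an unadjusted p under 0.05, as did 3.58% of all genes tested. These were Ier2, Tnpo2 and Wdr83os, with lower means in cKO. Over the 36 tested genes near Nfix the median log2 fold change was 0.02, beside -0.00 over all genes tested, with 20 above and 16 below 0. The libraries of the genotypes did not overlap for 1 of the 36, Trmt1, where 2.63% of all genes tested had this pattern.

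Within 100 kb of Nfix there were 15 such genes, of which 10 were tested. Trmt1, encoding a tRNA methyltransferase, was at 10 ± 2.74 CPM (CTR) and 13.8 ± 1.77 CPM (cKO; SD, n = 4 each), with a log2 fold change of 0.45 (SE 0.23, edgeR adjusted p = 1.0). Ier2, an immediate early gene, was at 50.9 ± 9.79 and 38.1 ± 4.53 CPM (log2 fold change -0.42, SE 0.16, edgeR adjusted p = 1.0). Nacc1, a transcriptional corepressor gene beside Nfix, had a log2 fold change of 0.02 and Calr, the most abundant of these genes and an endoplasmic reticulum chaperone, one of 0.03. The values of Dand5, Gadd45gip1, Farsa, Syce2 and Gcdh lay between -0.47 (Syce2) and 0.21 (Farsa), and Gm16183, Gm26664, Lyl1, 1700122E12Rik and Mir7069 were too low to be tested.

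**Figure D4:**
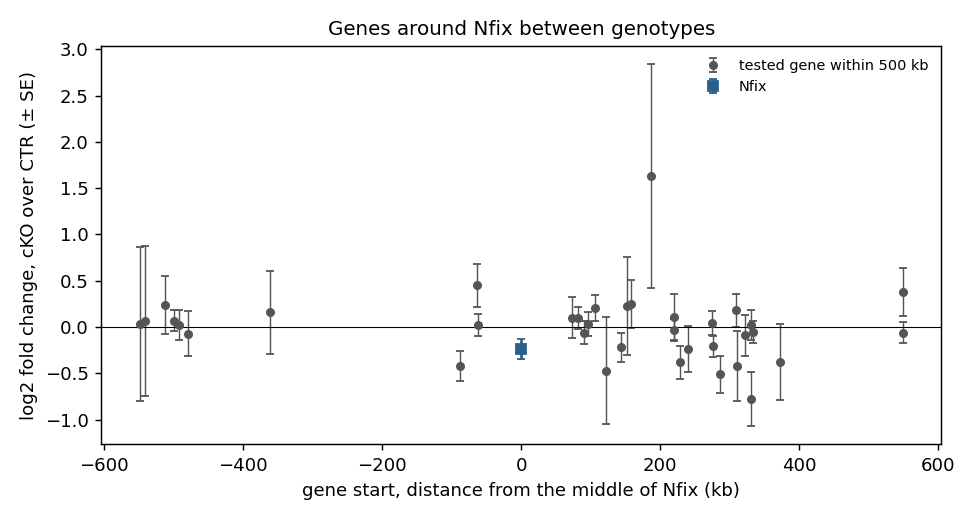
Fitted log2 fold change, cKO over CTR (points) with SE (bars), of the 36 tested genes that start within 500 kb of Nfix, by distance of the gene start from the middle of Nfix in kb, with Nfix as a blue square and G430095P16Rik left out. The values range from -0.78 to 1.63 on both sides of 0, and none passed the test.

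A list of 24 genes linked to NFI proteins in other tissues included direct targets in glia and muscle and genes of bone, tooth, fat and blood formation. Of these, 16 were tested between the genotypes. 0 were called by edgeR, DESeq2 or limma-voom, where these called 1, 31 (Wald test) or 40 (likelihood ratio test), and 0 of all 15561 genes. In edgeR 1 (6.25%), Fabp4, had an unadjusted p under 0.05, beside 0.00643% called and 3.58% under 0.05 over all genes tested. Their median log2 fold change was 0.04, with 9 above and 7 below 0. The libraries of the genotypes overlapped for all 16, and for all but 2.63% of all genes tested. Between the title number ranges the smallest adjusted p of these genes in edgeR was 0.215, that of Fabp4.

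The most abundant of them were Col1a2, a chain of type I collagen (5446 ± 247 CPM in CTR and 5205 ± 95 in cKO), Alpl, the alkaline phosphatase of bone (258 ± 29.5 and 325 ± 77.5 CPM), and Zcchc24 (275 ± 52.1 and 282 ± 54.0 CPM; SD, n = 4 each). Their log2 fold changes were -0.07 (SE 0.06), 0.33 (SE 0.17) and 0.03 (SE 0.17). The largest differences in size were those of Fabp4, a fatty acid binding protein of adipocytes (17.2 ± 8.90 and 32.6 ± 14.5 CPM, log2 fold change 0.92, SE 0.39, edgeR adjusted p = 1.0), Klf4 (-0.67, SE 1.15) and Eno3 (-0.41, SE 0.42). Klf4 and Eno3, a stem cell transcription factor and a muscle enolase, had means under 5 CPM in both genotypes. The glial genes Gfap and Fabp7, the muscle gene Ckm, the brown fat genes Ucp1, Cidea and Ppargc1a and the tooth gene Dspp were not tested because of low counts, and Fabp7, Ckm, Ucp1, Cidea and Dspp had 0 in all libraries.

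**Figure D5:**
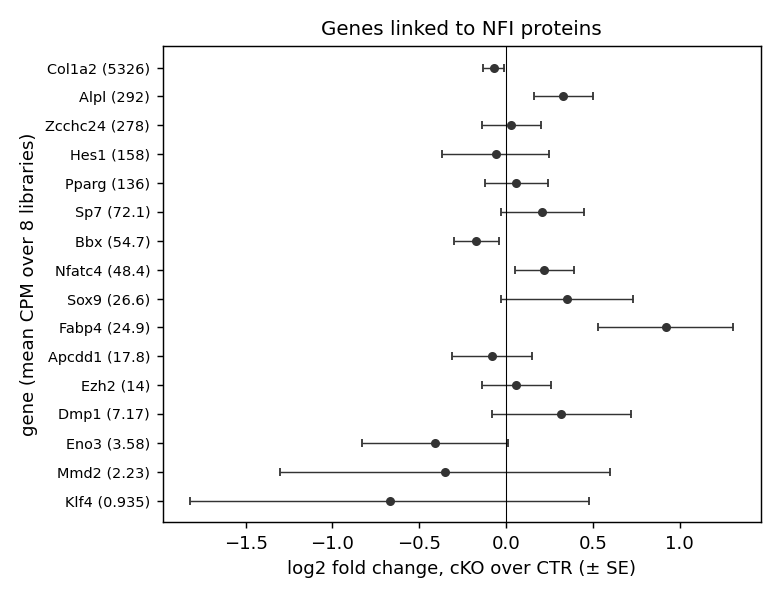
Fitted log2 fold change, cKO over CTR (points) with SE (bars), of the 16 tested genes linked to NFI proteins, ordered by mean CPM (in brackets). The medians of the list (0.04) and of all genes tested (-0.00) are close, and the bars are widest for the genes with the lowest CPM.

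The profile over the 8 libraries was compared with those of the 10787 genes whose mean reached 5 CPM, by the root mean square difference of mean-centred log2 CPM. The likest genes were Mex3c, Chtop and Ddx47 for Nfia (0.06 to 0.07), Stambp, Mtap and Sptlc1 for Nfib (0.06 to 0.07), Zc3h15, Crkl and Fundc2 for Nfic (0.05 to 0.07) and Bgn, Tpm1 and Traf3ip2 for Nfix (0.07). The NFI genes differed from each other by 0.14 (Nfib and Nfic) to 0.21 (Nfia with Nfic and with Nfix). Their profiles varied by only 0.13 to 0.16 around their means, and the points share library and depth.

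No gene resembled G430095P16Rik closely. The nearest was Gdpd3, a lysophospholipase D gene, at 2.05, against 3.35 for the variation of G430095P16Rik around its own mean. Gdpd3 had 0, 18, 0 and 124 counts in CTR1 to CTR4 and 491, 771, 279 and 444 in cKO1 to cKO4. Its genotypes did not overlap, as for 2.63% of all genes tested. Because Gdpd3 was picked for likeness to a profile that separates the genotypes, this is no separate result. Etohd2 (2.58) and Igfbp2, an insulin-like growth factor binding protein (2.60), came next, with 59 to 382 and 74 to 534 counts in CTR and 335 to 547 and 627 to 1364 in cKO.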

How the data were processed

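Poly(A)-selected RNA of 8 libraries was sequenced. After trimming and alignment to GRCm38 with HISAT2, the authors counted reads per gene with HTSeq-count and deposited raw counts. The methods name another GENCODE release than M21, from which coordinates and lengths were taken here, and 52403 of 52636 genes were matched to a symbol. Counts were scaled by TMM, filtered with filterByExpr and tested with edgeR 4.0.16 (quasi-likelihood test, Benjamini-Hochberg adjustment over all genes, threshold 0.05) in R 4.3.3, without covariates for genotype and with genotype for the title number range. DESeq2 1.42.0, limma-voom (limma 3.58.1), other scalings and filters and leaving out each library were alternatives, and scripts were tested on simulated data. The SE of an edgeR fold change is its absolute log2 value divided by the square root of the F value of the test. Fitted intervals are normal approximations at 95%. The genes and lists were chosen with earlier results of these data known. Genes named are the 5 chosen genes, genes inside an NFI gene or within 100 kb of Nfix, the 3 most abundant and 3 most different NFI-linked genes, the 3 likest genes of each chosen gene, called genes, and markers. Tnpo2, Wdr83os and Gm20716, and untested list genes, were named after their values were seen. The methods give older mice than the labels. Some genes under this rule are not reported here.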

Additional observations from a re-analysis of the deposited data

Results flagged for a closer look

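Of 10 groups of 4 libraries examined (5 genes in 2 genotypes), 1 had a library far from the others. In CTR, G430095P16Rik had 2 counts (0.0642 CPM) in CTR1 and 0 in the other 3 libraries, so that the gap of CTR1 to its neighbor was the whole range of the group (a ratio of 1.0, past Dixon's 95% critical value). Chance alone is expected to single out about 1 in 20 groups of normally distributed values, and that rate does not apply to this group. With 0 in the other 3 libraries, any count in CTR1 gives a ratio of 1.0, and this one rests on 2 counts.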

How the results depend on the processing

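Over all alternatives the fitted genotype log2 fold change was -0.31 to -0.19 for Nfix, -0.17 to -0.06 for Nfib, -0.13 to 0.02 for Nfic and -0.06 to 0.08 for Nfia, each within 1 SD between replicates of its main value. For G430095P16Rik, leaving out a library gave 8.18 to 10.95, and a filter that needs a count in every library removed it. Its range difference, 0.23 in edgeR with CTR at or near 0, was -0.06 with limma-voom, and leaving out a library gave -0.08 to 0.52. Genes called between genotypes numbered 1, but 0 with that filter, limma-voom or the replicate block, 31 with DESeq2's Wald test and 40 with its likelihood ratio test, and 0 to 1 with a library left out (0 without cKO2, cKO3 or cKO4). Between ranges the 2 calls became 4 without a filter, 356 and 329 with these DESeq2 tests, and 0 to 4 with a library left out. The cause was not tested. The order of the NFI genes by level per length had 2 places changed with the longest transcript. Deviations of same-numbered libraries of the genotypes had low positive correlations (0.0864, 0.136, 0.0667 and 0.0283). For 6 of 8 libraries the best match in the other genotype was the same-numbered one, and for all 8 it was in the same title number range. The labels state no pairing, and whether the numbers pair the libraries was not settled. The main fit therefore left pairing out, and a replicate block was an alternative. With the replicate block, log2 fold changes were -0.01 for Nfia, -0.11 for Nfib, -0.05 for Nfic, -0.25 for Nfix and 8.65 for G430095P16Rik. No call near Nfix or among NFI-linked genes was made in any alternative. Depth limits G430095P16Rik in CTR, where 0 counts allow up to 0.0932 CPM.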
